A study of Mus musculus with 16 samples.

Results

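The expression trend with age of culture was followed in GFP-positive cells sorted from mouse retinal organoids, three-dimensional cultures in which pluripotent stem cells form layered retinal tissue. All 16 libraries of the series were used, so the members are 16 of 16 samples, and each gene was given 1 slope against day of culture with the cell source held constant. The cells carried green fluorescent protein under the promoter of Nrl, the transcription factor that commits photoreceptor precursors to the rod fate. The sort therefore selects for cells in which this promoter was or had recently been active, and Nrl itself was low in some libraries. Embryonic stem cell (ESC) clones came from blastocysts of Nrl-GFP mice and gave 9 libraries. Induced pluripotent stem cell (iPSC) clones were made from embryonic fibroblasts of Nrl-GFP mice with doxycycline-inducible lentiviruses for Oct3/4, Sox2, Klf4 and c-Myc and gave 7. ESC cultures gave 3 libraries on day 18, 3 on day 21 and 1 on each of days 25, 28 and 35, and iPSC cultures gave 2 on day 18, 2 on day 25 and 1 on each of the other days. All cultures were kept at 5% oxygen until day 10 and at 20% afterwards, and the protocol lists retinoic acid from day 14 to day 26, so the last days were sampled after its withdrawal. The labels do not say how many clones were used or whether libraries of a group were separate cultures, so p-values measure the spread between these libraries, which may be technical.

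Rods detect light with a membrane cascade. Photons activate the opsin, the opsin activates transducin, transducin activates a phosphodiesterase, and the fall in cyclic GMP closes a cation channel. The cascade is housed in the outer segment, a modified cilium packed with discs, and the cell signals to bipolar cells through a ribbon synapse. Rod precursors leave the cell cycle before these structures form, and in mouse retina the genes of the mature rod are switched on over the weeks after that exit.

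Libraries had effective sizes of 4696117 to 27006481 estimated counts, so that 1 count was worth 0.213 to 0.037 CPM, the count scaled to library size. The day 18 libraries were not alike. Nrl was at 17.74 CPM in the library labelled ESC day 18 replicate 1 and at 15.99 CPM in that labelled iPSC day 18 replicate 1, here called the low-Nrl pair, and at 135.8 to 881.3 CPM in the remaining 3 of that day. Y-linked genes also went against the source label in 2 libraries, called the Y-discordant pair. Their mean was 0.9 CPM in the library labelled ESC day 18 replicate 1 (other ESC libraries 25.6 to 73.8). In that labelled iPSC day 18 replicate 2 it was 42.2 CPM (other iPSC libraries 0.6 to 11.5). The 11.5 CPM was that of iPSC day 25 replicate 1, which was kept when the pair was left out. The rest of the iPSC libraries were at 0.6 to 1.5 CPM. Counts for the main lists are given with and without these pairs. The low-Nrl libraries were alike though labelled as different sources. Mean Y-linked levels were 0.9 and 1.1 CPM, summed rod phototransduction genes 434.9 and 457.7 CPM, and summed retinal progenitor genes 4552 and 4443 CPM. Whether they are separate samples was not tested, and each slope and p-value over all libraries counts them as 2. The 2 day 35 libraries weighed most on each slope, with leverages of 0.423 for ESC and 0.383 for iPSC, and the other libraries had 0.118 to 0.225.

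Of 15202 genes with at least 1 CPM in at least 2 libraries, 1840 (12.1%) had a slope with day, 1036 upward (6.81%) and 804 downward (5.29%), in limma with trend at a Benjamini-Hochberg adjusted p under 0.05. A slope is given in log2(CPM + 1) units per week, so 1 means that CPM + 1 doubled each week. The median slope was 0.60 among the rises, -0.59 among the falls and 0.01 over all tested genes, and 185 rises and 119 falls were steeper than 1 per week. Of the rises, 476 (45.9%) had a higher mean at each of the 4 steps from one sampled day to the next, and of the falls, 290 (36.1%) had a lower mean at each step. The same held for 706 (4.64%) and 501 (3.30%) of all tested genes. Steps and slopes come from the same libraries, so these shares describe the shape of the courses and are no second test. Day means pool ESC and iPSC libraries without a source term, and the mix of sources differs between days, so a step can include a difference between sources. The fit without the low-Nrl pair called 798 (5.25%), 484 up and 314 down, and 748 of them were among the 1840. Without the Y-discordant pair 1045 were called (6.87%), 661 up and 384 down, and 1024 of them were among the 1840. Without day 35 the count was 1375 (9.04%), 835 up (5.49%) and 540 down (3.55%), and 799 of them were among the 1840. On rounded gene sums edgeR called 1257 of 9321 genes (13.5%), 647 up (6.94%) and 610 down (6.54%). The count fell to 555 without iPSC day 35 and to 1033 without iPSC day 18 replicate 1, and it rose to 3294 without ESC day 35.

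**Figure D1:**
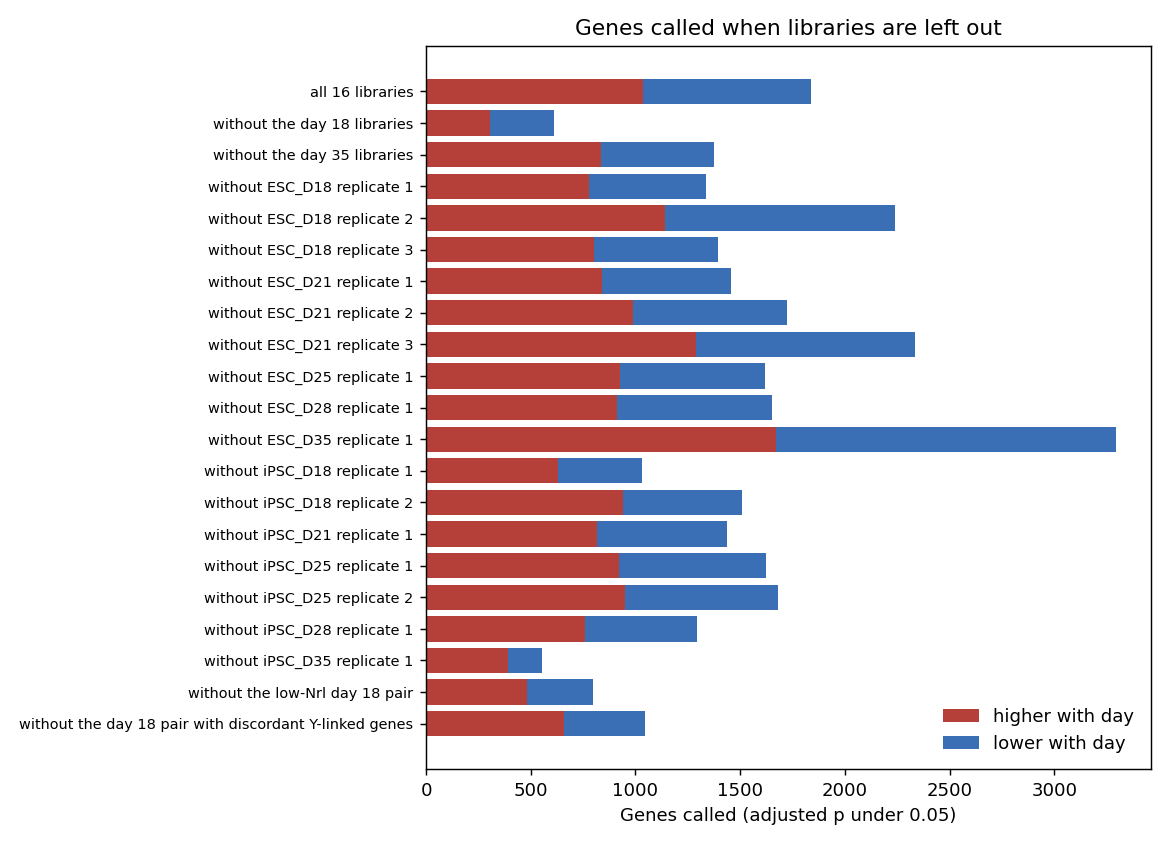
Number of genes with a slope (adjusted p under 0.05, limma with trend) for all 16 libraries and with libraries left out, with rises in red and falls in blue. The count is 1840 with all libraries, 555 without iPSC day 35, 610 without the 5 day 18 libraries and 3294 without ESC day 35.

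Pde6a, the alpha subunit of the rod phosphodiesterase, had the smallest p of all tested genes. In ESC cultures it was at 0.210, 1.18 and 0 CPM on day 18, 2.08, 2.25 and 3.29 on day 21, 8.21 on day 25, 29.2 on day 28 and 126 on day 35. In iPSC cultures it was at 0 and 1.96 CPM on day 18, 3.09 on day 21, 9.56 and 23.9 on day 25, 66.4 on day 28 and 226 on day 35. Every library of a day lay above every library of the day before, in both sources together. Its slope was 2.89 ± 0.18 (SE) per week, or 7.40-fold per week in CPM + 1 (adjusted p = 2.58e-07), and it was 2.75 in ESC and 3.05 in iPSC libraries fitted alone.

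Gnat1, the alpha subunit of rod transducin (chromosome 9, 107674474 to 107679712 in GRCm38), stayed low for longer. ESC libraries held 5.17, 4.29 and 1.97 CPM on day 18, 3.15, 5.32 and 6.66 on day 21, 11.5 on day 25, 12.2 on day 28 and 139 on day 35. iPSC libraries held 4.68 and 5.73 CPM on day 18, 5.71 on day 21, 13.9 and 21.2 on day 25, 104 on day 28 and 248 on day 35. Days 18 and 21 overlapped, and so did days 25 and 28, since the ESC library of day 28 was below both iPSC libraries of day 25. The slope was 2.10 ± 0.20 per week (adjusted p = 2.79e-05).

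Wdr17, a WD-repeat protein (chromosome 8, 54629055 to 54887184), rose from a level that was already measurable. ESC libraries held 13.3, 8.75 and 11.0 CPM on day 18, 14.2, 18.0 and 24.2 on day 21, 42.3 on day 25, 82.8 on day 28 and 131 on day 35. iPSC libraries held 10.95 and 16.7 CPM on day 18, 17.7 on day 21, 38.0 and 111 on day 25, 189.7 on day 28 and 315 on day 35. Within either source no library of a later day fell below one of an earlier day. The slope was 1.77 ± 0.16 per week (adjusted p = 2.79e-05).

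Zrsr1, an imprinted retrogene for a U2AF-related splicing factor (chromosome 11, 22972005 to 22976496), had a shallow course with little scatter. ESC libraries held 9.47, 14.6 and 10.5 CPM on day 18, 13.4, 15.0 and 20.8 on day 21, 21.0 on day 25, 27.05 on day 28 and 54.1 on day 35. iPSC libraries held 11.3 and 14.7 CPM on day 18, 17.9 on day 21, 23.0 and 24.1 on day 25, 37.3 on day 28 and 59.8 on day 35. Only days 18 and 21 overlapped. The slope was 0.88 ± 0.08 per week (adjusted p = 2.79e-05), with 0.86 in ESC and 0.89 in iPSC libraries. Zrsr1 lies within the gene Commd1, so reads of the host could add to it where the counting did not use strand.

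Other genes of small p had the same steady shape without belonging to the light cascade. They were the sulfate transporter Slc26a2 (slope 1.16), the endophilin Sh3gl2 (0.84), which acts in synaptic vesicle recycling, the mitochondrial creatine kinase Ckmt1 (1.51) and Mcc (1.12). Sh3gl2 stood between 21.9 and 29.6 CPM in the 5 day 18 libraries and at 109 and 89.6 CPM on day 35. Ckmt1 went from 5.61 to 10.1 CPM on day 18 to 57.1 and 124 CPM on day 35. The call of Pde6a, Gnat1, Wdr17, Zrsr1, Slc26a2, Sh3gl2, Ckmt1 and Mcc was kept without either pair and without day 18.

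**Figure D2:**
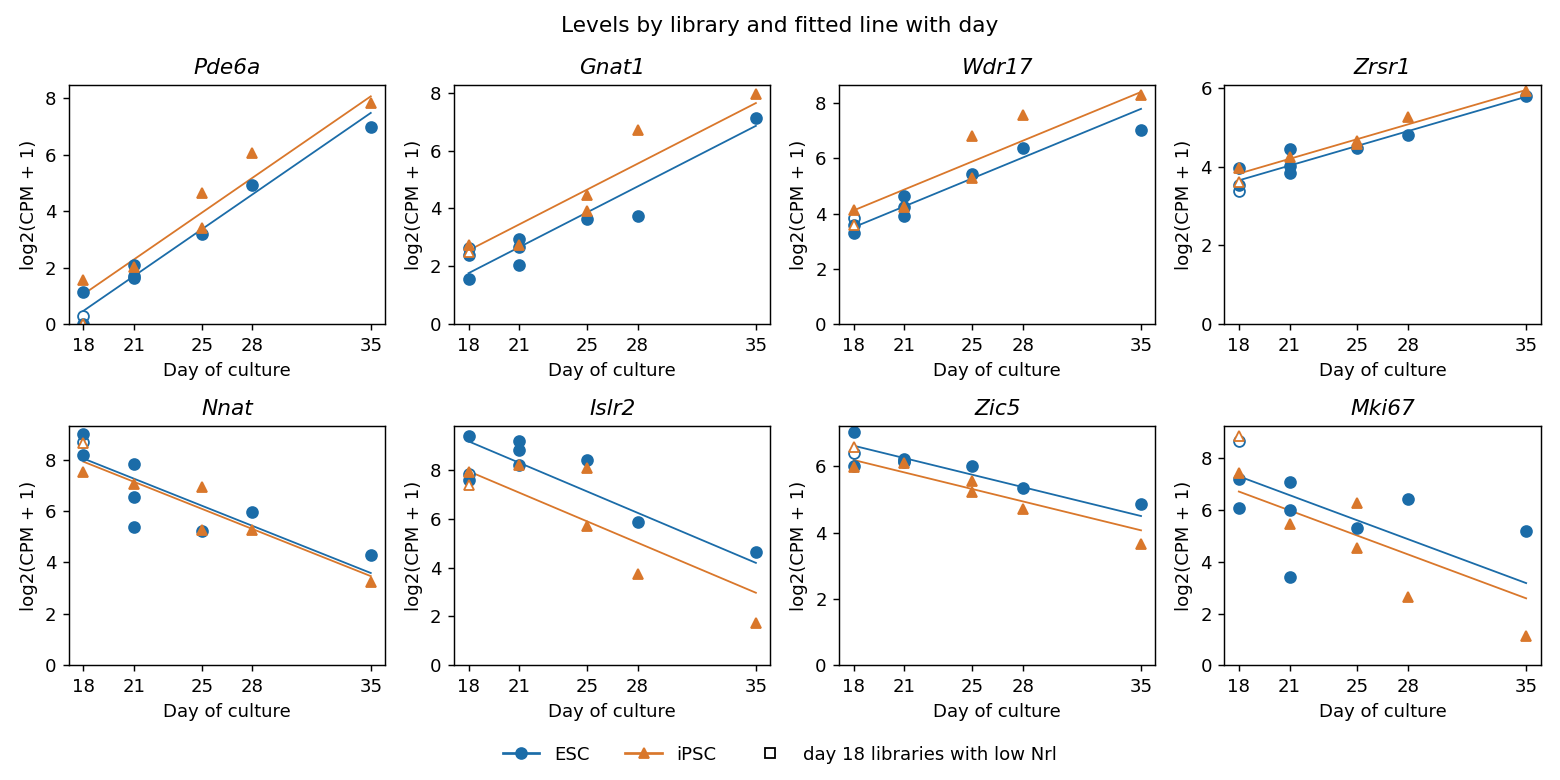
Level of 8 genes in each library, as log2(CPM + 1), against day of culture, with ESC libraries as blue circles, iPSC libraries as orange triangles, the low-Nrl pair as open symbols and lines from the fit on day and source. The rises (top) span from 0.88 per week in Zrsr1 to 2.89 in Pde6a, and Mki67 (bottom right) scatters more about its line than Zic5 does.

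The genes of the rod light cascade rose together. Of 20 tested members of the rod phototransduction list, 18 rose and none fell, with a median slope of 1.78 per week, and 15 of the 20 had a higher mean at every step. The 2 that did not pass were Pdc (1.46, adjusted p = 0.0521) and the opsin kinase Grk1 (0.60, adjusted p = 0.162), both named after their values were seen. Among the members, the channel subunits Cnga1 and Cngb1 had slopes of 3.01 and 2.93, the inhibitory phosphodiesterase subunit Pde6g 2.99, and the calcium sensor Rcvrn 2.89. Cnga1 was at 0, 5.04 and 0.1495 CPM in ESC and 0.0482 and 17.3 CPM in iPSC libraries of day 18, and at 186 and 561 CPM on day 35. The low-Nrl pair held the lowest values of Cnga1, Cngb1 and Pde6g among all 16 libraries. Without the low-Nrl pair 16 members rose (3.18% of all genes then rose), with a median slope of 1.55, and without the Y-discordant pair 16 rose (4.35%), with a median of 1.80. With 1 library left out the count was lowest, at 14, without iPSC day 35.

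The members did not rise in step. Gucy2f, a guanylate cyclase that restores cyclic GMP, was at 0.124, 5.28 and 0.253 CPM in ESC and 0.243 and 0.148 CPM in iPSC libraries of day 18. It was between 0 and 1.86 CPM in the libraries of days 21 and 25 and in ESC day 28. It reached 10.2 CPM in iPSC day 28 and 34.7 and 25.1 CPM on day 35 (slope 1.72, adjusted p = 0.00388). Pde6b, the beta subunit of the phosphodiesterase, was instead at 274 and 232 CPM in 2 day 18 libraries, 27.2 CPM in another and 1.45 and 0.925 CPM in the low-Nrl pair, and it reached 667 and 2002 CPM on day 35. Its slope of 2.42 per week (adjusted p = 0.0353) was 1.35 without that pair (adjusted p = 0.047). Sag, the rod arrestin, rose over all libraries (1.82, adjusted p = 0.0382), but its slope without the pair was 1.07 with an adjusted p of 0.0893.

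Outer segment genes showed the same direction. Of 27 tested members of the outer segment and disc list, 19 rose and none fell (median slope 1.51), 16 rose without the low-Nrl pair, 17 without the Y-discordant pair and 10 without iPSC day 35. Rdh8, the outer segment retinol dehydrogenase, rose by 2.65 per week, and Impg1, a component of the interphotoreceptor matrix, by 2.44. Rdh8 was at 0, 0.162 and 0 CPM in ESC and 0 and 4.79 CPM in iPSC libraries of day 18, and at 69.8 and 95.1 CPM on day 35. Prph2, which shapes the disc rim, rose by 2.02 per week (adjusted p = 0.0227), from 8.05 and 7.97 CPM in the low-Nrl pair and 109 to 341 CPM in the rest of day 18 to 746 and 2520 CPM on day 35. Rp1, an axonemal microtubule protein, rose by 2.30 per week. Genes of the photoreceptor cilium and its transport rose by less. There 20 of 37 tested members rose and none fell (median slope 0.37), 12 without the low-Nrl pair, 16 without the Y-discordant pair and 8 without iPSC day 35. Among them were Rpgrip1, which anchors proteins at the connecting cilium (1.43), and the BBSome-related genes Arl6 (1.21) and Bbs5 (1.11).

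Synaptic genes rose with them. Of 28 tested ribbon synapse members, 13 rose and none fell (median 0.74), 8 without the low-Nrl pair, 10 without the Y-discordant pair and 8 without iPSC day 35. Cacna1f, the pore of the presynaptic calcium channel, was at 1.15 to 23.3 CPM on day 18 and 170 and 377 CPM on day 35, with a slope of 2.28. Its auxiliary subunit Cacnb2 rose by 2.09, the ribbon synapse complexin Cplx4 by 2.07 and the scaffold Mpp4 by 2.03 per week.

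Of the transcription factors that specify photoreceptors, 4 of 19 tested members rose and none fell (median 0.49), 2 without the low-Nrl pair, 2 without the Y-discordant pair, 2 without iPSC day 35 and 10 without ESC day 35. Nrl had a slope of 1.51 (adjusted p = 0.0785), Crx 0.57 (adjusted p = 0.271) and Nr2e3, which represses cone genes, 1.53 (adjusted p = 0.121). Nrl was at 321 to 1915 CPM on day 21, 932 to 1628 on day 25, 1067 and 1921 on day 28 and 556 and 1860 on day 35, so the days after day 18 overlapped throughout. Crx was at 1046 to 2701 CPM on day 21 and 875 and 2092 CPM on day 35, and these overlapped as well. The risers were Ankrd33 (2.02), a photoreceptor transcriptional cofactor, Esrrb (1.62), a nuclear receptor needed for rod survival, Casz1 (0.82) and the clock repressor Nr1d1 (0.49). Esrrb stood at 0.347 to 2.00 CPM in 13 libraries and at 11.7 CPM in iPSC day 28 and 21.9 and 47.1 CPM on day 35. The median difference of the list from day 18 was 1.29 log2 units on day 21, 1.61 on day 25, 1.56 on day 28 and 1.22 on day 35, while that of rod phototransduction was 1.63, 3.04, 3.65 and 4.34. ESC cultures gave 1 library on each of days 25, 28 and 35, and no gene's slope passed the test of a difference between sources. In these few libraries the transcription factor list was lower by day in ESC cultures and not in iPSC cultures. Its mean log2(CPM + 1) in ESC libraries was 7.60 on day 25, 7.16 on day 28 and 6.80 on day 35. In iPSC libraries it was 7.19 and 7.65 on day 25, 7.65 on day 28 and 7.91 on day 35.

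**Figure D3:**
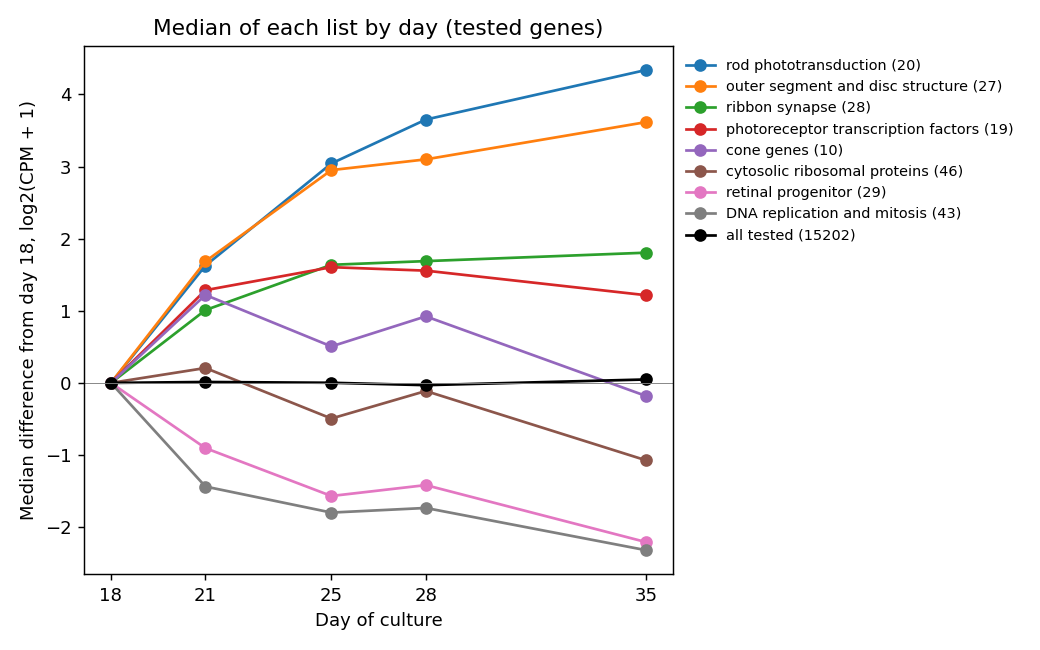
Median difference from the day 18 mean, in log2(CPM + 1), of the tested members of 8 gene lists and of all tested genes, on each sampled day. Day means pool both sources. Rod phototransduction reached 4.34 on day 35, photoreceptor transcription factors stood at 1.61 on day 25 and 1.22 on day 35, and DNA replication and mitosis had moved by -1.44 on day 21 and -2.32 on day 35. From day 25 to day 35 the mean level of the transcription factor list went from 7.60 to 6.80 in ESC libraries. In iPSC libraries it went from 7.19 and 7.65 to 7.91.

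Of 10 tested cone genes 1 fell (10%, all genes 5.29%) and none rose, and 4 of the 10 slopes were positive. Pde6c, the cone phosphodiesterase, was at 17.0, 49.3 and 107 CPM in ESC and 21.4 and 90.2 CPM in iPSC libraries of day 18, at 65.4 to 151 CPM on day 21, at 20.0 to 68.0 CPM on day 25, at 14.2 and 6.20 CPM on day 28 and at 3.09 and 1.88 CPM on day 35. All libraries of days 28 and 35 were below all earlier ones (slope -1.65, adjusted p = 0.00672). Without iPSC day 35 the slope was -1.504 (adjusted p = 0.0503). Opn1sw, the short-wavelength cone opsin, had no slope over all days (-0.49, adjusted p = 0.673). It stood at 2.04 to 84.3 CPM on day 18, at 39.1 to 460 CPM on day 21 and at 3.09 and 4.20 CPM on day 35, and fitted without day 18 its slope was -2.29 (adjusted p = 0.0362). Arr3, the cone arrestin, stayed between 0.436 and 10.3 CPM (0.16, adjusted p = 0.728).

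Among the falls, Nnat, an imprinted neuronal proteolipid (chromosome 2, 157560078 to 157562522), was lower in each day's mean than in the one before. ESC libraries held 408, 289.6 and 515 CPM on day 18, 224, 92.8 and 40.4 on day 21, 36.8 on day 25, 61.0 on day 28 and 18.6 on day 35. iPSC libraries held 395 and 184 CPM on day 18, 133 on day 21, 120.1 and 37.8 on day 25, 36.9 on day 28 and 8.40 on day 35. The 2 day 35 libraries were the lowest of the 16 (slope -1.83 ± 0.25, adjusted p = 0.000644). Zic5, a zinc finger factor of neural progenitors (chromosome 14, 122456795 to 122465677), fell by 0.87 per week with little scatter (adjusted p = 0.00029). It was at 62.3 to 130.3 CPM on day 18, 67.0 to 74.1 on day 21, 36.2 to 63.9 on day 25, 39.6 and 25.3 on day 28 and 28.2 and 11.6 on day 35. Islr2, a membrane protein of growing axons, did not fall until after day 21. It was at 166 to 681 CPM on day 18 and 293 to 589 CPM on day 21, then at 57.8 and 12.5 CPM on day 28 and 23.6 and 2.30 CPM on day 35 (slope -2.05, adjusted p = 0.00168).

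Of 29 tested retinal progenitor genes, 10 fell and none rose (median slope -0.81), 5 without the low-Nrl pair (2.07% of all genes then fell), 6 without the Y-discordant pair (2.53%), 6 without iPSC day 18 replicate 1 and 4 without iPSC day 35. Leaving out ESC day 18 replicate 2 or ESC day 35 raised the calls to 16 and 18, of which 1 was a rise without ESC day 35. Fgf15, a growth factor of cycling progenitors, fell by 2.64 per week, the progenitor factor Foxn4 by 1.90, and the secreted Wnt modulator Sfrp2 by 1.74. Fgf15 was at 801 and 868 CPM in the low-Nrl pair, 28.6 to 387 CPM in the rest of day 18 and 3.10 and 1.17 CPM on day 35. The call of Foxn4 was lost without the pair (slope -1.63, adjusted p = 0.0523).

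Cell cycle genes had the same direction, and their calls depended on single libraries. Of 43 tested members of the DNA replication and mitosis list, 26 fell, none rose and all 43 slopes were negative (median -0.85). Without the low-Nrl pair 3 members fell, without the Y-discordant pair 3, without iPSC day 18 replicate 1 alone 7 and without iPSC day 35 2. Leaving out ESC day 18 replicate 1 or 3, iPSC day 18 replicate 2 or iPSC day 28 left 11, 13, 10 and 12 members. The median slope was -0.60 without the low-Nrl pair and -0.76 without the Y-discordant pair. Mki67, the proliferation antigen (chromosome 7, 135689784 to 135716361), was at 406, 66.45 and 146 CPM in ESC and 462.5 and 172 CPM in iPSC libraries of day 18, at 135, 62.3, 9.60 and 43.45 CPM on day 21, at 38.05, 77.1 and 21.9 CPM on day 25, at 84.2 (ESC) and 5.14 (iPSC) CPM on day 28, and at 35.3 (ESC) and 1.20 (iPSC) CPM on day 35. In ESC cultures day 35 (35.3 CPM) was near day 25 (38.05 CPM), and the day 28 and 35 iPSC libraries were the lowest of the 16. Its slope over all libraries was -1.70 (adjusted p = 0.0235) and without the low-Nrl pair -1.30 (adjusted p = 0.1). In ESC libraries alone the list's median slope was -0.53 and in iPSC libraries alone -1.18, with 0 and 27 members called, and no gene's slope passed the test of a difference between sources. In a sorted bulk sample, fewer cycling cells and less of these transcripts per cell cannot be told apart.

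**Figure D4:**
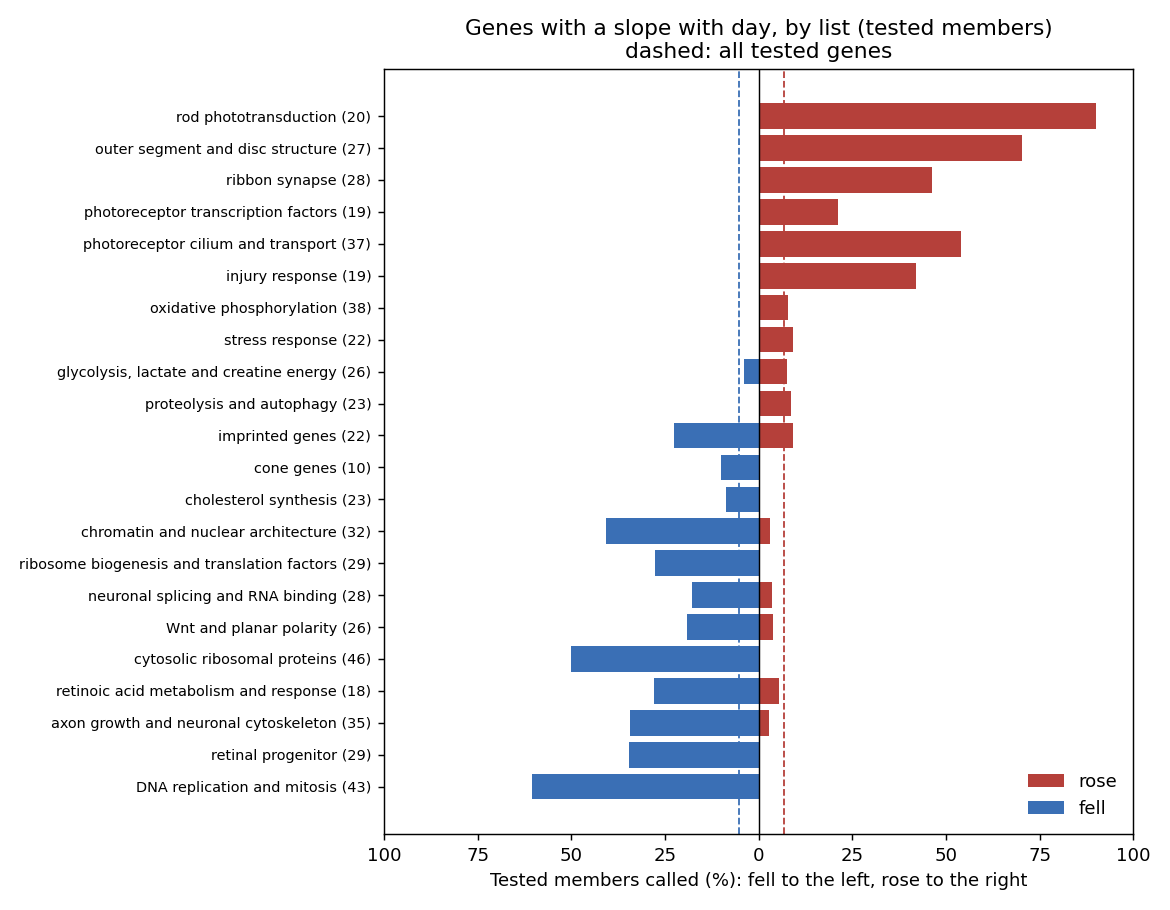
Share of the tested members of 22 gene lists that rose (right, red) or fell (left, blue), with the number of tested members in parentheses and dashed lines at 6.81% and 5.29%, the shares among all tested genes. Rod phototransduction has 90.0% rising and DNA replication and mitosis 60.5% falling, and oxidative phosphorylation is near the dashed line.

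The translation machinery declined without the even steps seen in Pde6a or Zrsr1. Of 46 cytosolic ribosomal protein genes, 23 fell, none rose and all 46 slopes were negative (median -0.41), yet none had a lower mean at every step, since the median level went up by 0.21 log2 units from day 18 to 21 and by 0.38 from day 25 to 28. Rpl3 was at 381 to 717 CPM on day 18 and 138 and 264 CPM on day 35 (slope -0.69), and Rplp0 at 250.1 to 755 CPM and then 91.7 and 149 CPM (-0.77). Without the low-Nrl pair 13 members fell, without the Y-discordant pair 16, without iPSC day 35 3, without ESC day 35 13 and without iPSC day 18 replicate 1 14. Without both day 35 libraries 2 members fell, with a median slope of -0.22. The list's median difference from day 18 was -0.11 log2 units on day 28 and -1.07 on day 35. Ribosomal protein genes have many processed pseudogenes, and reads could be split among them. Of 29 genes for ribosome biogenesis and translation factors, 8 fell and none rose, among them the nucleolar proteins Npm1 (-0.53) and Fbl (-0.47). That is 27.6% of the list (5.29% of all genes), but 2 members fell without the low-Nrl pair, 3 without the Y-discordant pair, 3 without iPSC day 18 replicate 1 and 1 without iPSC day 35. Of 32 chromatin genes 13 fell and 1 rose (median -0.23), with 7 falling without the low-Nrl pair, 9 without the Y-discordant pair and 7 without iPSC day 35. The high-mobility-group proteins Hmgb2 (-0.93), Hmga1 (-0.80) and Hmgb3 (-0.70) and the histone variant H2afz (-0.67) were among the falls.

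Genes of immature neurons fell too. Of 35 members of the axon and cytoskeleton list 12 fell and 1 rose (median -0.68), 6 falling without the low-Nrl pair and 7 without the Y-discordant pair. Without iPSC day 35 3 members were called, and without ESC day 35 25. Besides Islr2 these were led by Sox11 (-1.43), a factor of newborn neurons, and the neuronal tubulins Tubb3 (-1.17) and Tubb2b (-1.14). In the RNA-binding list 5 of 28 fell (17.9%), among them the oncofetal Igf2bp1 (-1.39), at 31.0 to 84.3 CPM on day 18 and 5.26 and 2.92 CPM on day 35, and Lin28b (-1.02), an inhibitor of let-7 maturation. Mbnl1, a regulator of splicing in differentiated cells, rose by 0.69. Without the low-Nrl pair 3 members of that list fell, without the Y-discordant pair 4, without iPSC day 35 3 and without ESC day 35 10. In the Wnt and planar polarity list 5 of 26 fell (19.2%), including the receptors Fzd2 (-1.11) and Fzd7 (-0.95), and Prickle1 rose by 1.01. Without the low-Nrl pair 3 members of that list fell, without the Y-discordant pair 3, without iPSC day 35 3, without ESC day 35 9 and without day 18 0.

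Of 18 genes of retinoic acid metabolism and response 5 fell and 1 rose (median -0.52), 3 falling without the low-Nrl pair and 4 without the Y-discordant pair, and none was called without iPSC day 35. The retinoic acid-degrading enzymes Cyp26b1 and Cyp26a1 fell by 1.90 and 1.67 per week, the binding protein Crabp2 by 1.47 and the retinol carrier Rbp4 by 1.44. Cyp26a1 was at 25.1 to 63.1 CPM in ESC and 68.2 and 14.3 CPM in iPSC libraries of day 18 and at 0.217 to 2.75 CPM on days 28 and 35. Cyp26b1 was still at 101.3 to 361 CPM on day 25 and then at 45.9 and 11.5 CPM on day 28 and 5.69 and 2.53 CPM on day 35. Days 28 and 35 are also the days after retinoic acid left the medium, so its withdrawal and age cannot be told apart there.

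In 5 other lists few members were called. In oxidative phosphorylation 3 of 38 tested genes rose (7.89%, all genes 6.81%), among them Ndufa4 (0.47) and Ndufa5 (0.36). Of the 38 slopes 36 were positive, with a median of 0.158 per week (0.01 over all genes). None of the 38 was called without the low-Nrl pair, 1 without the Y-discordant pair, none without iPSC day 35 and 8 without ESC day 35 or without ESC day 21 replicate 3. In the energy list 2 of 26 rose (7.69%, all genes 6.81%), Ckmt1 and the hexokinase Hk1 (1.21). Hk1 was at 45.0 to 144 CPM on day 18 and 435 and 641 CPM on day 35. The neuronal glucose transporter Slc2a3 fell (-0.57), which is 3.85% of the list (all genes 5.29%). No member fell without the low-Nrl pair (Slc2a3 adjusted p = 0.0687, limma with trend), without the Y-discordant pair or without day 18. That list had 7 calls without ESC day 35, 6 without ESC day 21 replicate 3, and 2 without iPSC day 35 or without iPSC day 18 replicate 1. In cholesterol synthesis 2 of 23 fell (8.70%, all genes 5.29%), Acat2 (-0.65) and Nsdhl (-0.38). In the stress response 2 of 22 rose (9.09%, all genes 6.81%), Atf3 (0.64) and Atf4 (0.41). In proteolysis and autophagy 2 of 23 rose (8.7%), Ctsd (0.35) and Gabarapl1 (0.26). None of these 4 was called without the low-Nrl pair, and with 1 library left out the stress list had 0 to 4 calls and the proteolysis list 0 to 3. Among imprinted genes 2 of 22 rose and 5 fell (22.7%), with Zrsr1 and Nnat at the extremes and the cell cycle inhibitor Cdkn1c at -0.94. In that list 1 member rose and 3 fell in each of 4 fits, those without the low-Nrl pair, without the Y-discordant pair, without iPSC day 35 and without iPSC day 18 replicate 1.

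Markers of other cells were high in single libraries in some lists and had mostly negative slopes in others. Of 14 Muller glia markers 5 rose (35.7%, all genes 6.81%), including Gfap (1.73), Aqp4 (1.66) and Rlbp1 (1.03). But the levels of the 14 summed to 2454 CPM in the ESC library of day 35 and 334 CPM in the iPSC library, with 385 to 1363 CPM in the other libraries. Aqp4 stood at 222 CPM in the ESC library of day 35, 29.2 and 5.67 CPM in the iPSC libraries of days 28 and 35 and at most 5.54 CPM elsewhere. Grm6, the receptor of ON bipolar cells, was at 78.8 CPM in ESC day 35 and at most 1.23 CPM in the others (slope 1.25). Prkca, also a rod bipolar marker, rose more evenly (0.87, adjusted p = 0.000686), from 14.2 to 35.5 CPM on day 18 to 138 and 76.1 CPM on day 35. Without ESC day 35 none of the 14 glial markers rose and 5 fell. With iPSC day 28 left out 1 rose, and with iPSC day 35, iPSC day 21, or replicate 1 or 3 of ESC day 18 or replicate 1 of iPSC day 18 left out 3 did. In the injury list 8 of 19 rose (42.1%, all genes 6.81%), 2 without iPSC day 35, and 5 with 2 falls without ESC day 35. It holds Gfap and other glial genes such as Serpina3n (1.39), with slopes of 2.08 in ESC and 0.58 in iPSC libraries alone. Other risers of that list were steeper in iPSC libraries, such as Cebpd (0.63 in ESC, 1.23 in iPSC) and Fgf2 (0.69 and 1.12). The median slope of the glial list was 0.90 in ESC libraries alone and -0.10 in iPSC libraries alone. Pigment epithelium markers summed to 2230 CPM in the ESC library of day 35, 1584 CPM in ESC day 18 replicate 2, and 43.3 to 333 CPM elsewhere. Mreg (1.12) was the 1 riser of 11 (9.09%, all genes 6.81%). Of 20 horizontal and ganglion cell markers 2 fell (10%, all genes 5.29%), Onecut1 (-1.29) and Onecut2 (-0.46). Only 2 of the 20 slopes were positive, with a median of -0.94 per week (0.01 over all genes). Without ESC day 35 9 of these markers fell and 1 rose, but 0 were called without iPSC day 35 and 1 without iPSC day 18 replicate 1. No marker of amacrine, lens, forebrain, fibroblast, or microglial and endothelial cells was called over all libraries. Of the 11 tested forebrain slopes 0 were positive (median -0.66). Summed forebrain markers were at 277 and 290 CPM in the low-Nrl pair and 8.72 to 137 CPM elsewhere. In the pluripotency list Esrrb alone was called, and 2 of its 14 genes were at 0 in every library. The part of these cells in the slopes of other genes was not tested.

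**Figure D5:**
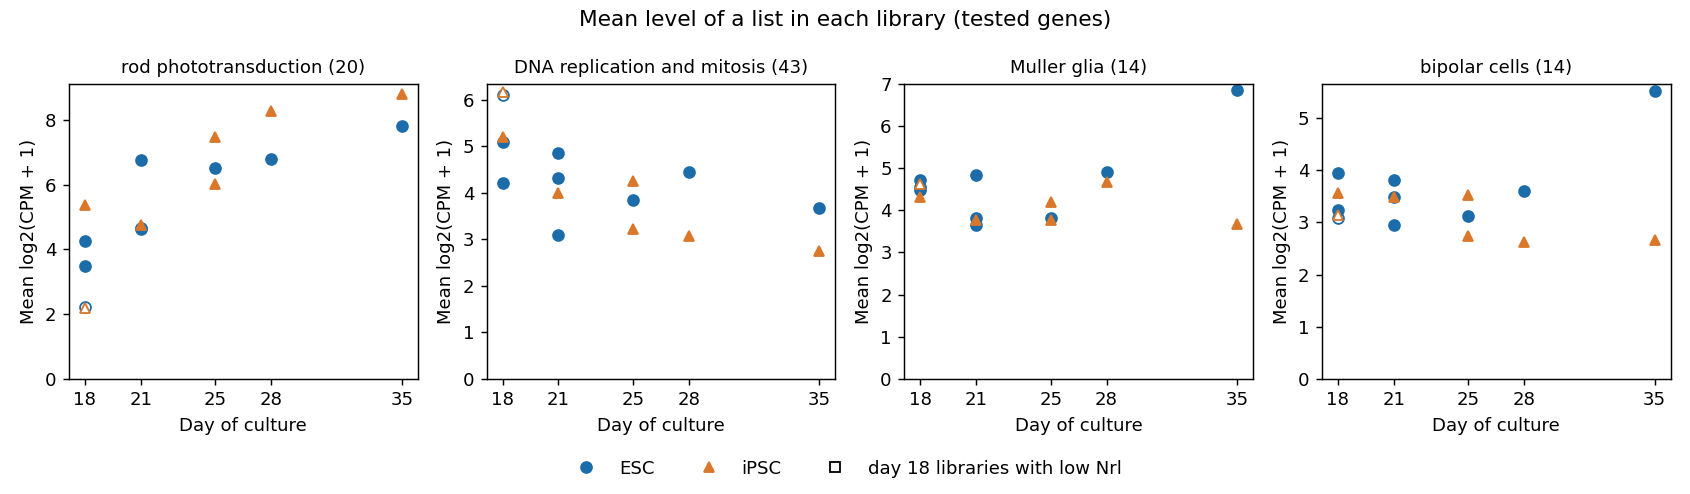
Mean log2(CPM + 1) of the tested members of 4 gene lists in each library against day, with ESC libraries as blue circles, iPSC libraries as orange triangles and the low-Nrl pair as open symbols. Rod phototransduction rises from 2.22 and 2.19 in the low-Nrl pair to 7.81 and 8.79 on day 35, and ESC day 35 stands above all other libraries for the glial and bipolar lists.

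A straight line was compared with free day means, and no gene departed from it at an adjusted p under 0.05 (smallest 0.157, 1337 genes at an unadjusted p under 0.05, limma with trend). Counts summed by gene and tested in edgeR also gave 0 of 9321, with 755 at an unadjusted p under 0.05. Without iPSC day 35, 29 genes departed, and without ESC day 21 replicate 1, 1 did. The slopes of ESC and iPSC libraries were compared in the same way, and 0 genes differed (smallest adjusted p 0.351, 1233 at an unadjusted p under 0.05), as by edgeR (0, with 970). Among ESC libraries alone 6 genes were called, all rises (0.0395%): Endod1, Gnat1, Pde6a, Prkca, Sh3gl2 and Wdr17. Among iPSC libraries alone 1862 were called (12.2%), 780 up (5.13%) and 1082 down (7.12%).

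Since day 18 holds the libraries that stand apart, the slope was also taken over days 21 to 35 alone. It called 610 genes (4.01%), 303 up (1.99%) and 307 down (2.02%), and 393 of them were among the 1840. Among the rises of smallest p were Pde6a (2.76), Gucy2f (2.41), Gnat1 (2.39), Anxa2 (1.496) and Slc26a2 (1.24). Among the falls of smallest p were Pde6c (-2.46), Onecut1 (-2.19), Ripply3 (-1.87) and Bhlha15 (-1.24). Ripply3 was at 4.98 and 5.93 CPM in the low-Nrl pair, 21.0 to 31.1 CPM in the rest of day 18, 19.7 to 36.6 CPM on day 21 and 1.41 and 0.958 CPM on day 35. In this fit 9 of 20 rod phototransduction genes rose, 5 of 27 outer segment genes rose, 13 of 46 ribosomal protein genes fell and 1 of 43 replication and mitosis genes fell.

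Promoter sequence was compared because genes of the rod cascade and of the cell cycle each moved together. The windows are the 250 bases before the annotated start in RefSeq, build GRCm38.p6, and were searched on both strands. The letters TAATCC, bound by CRX, were in 5.19% of the 14305 windows of tested genes, 6.93% of those of the rises, 17.0% of those of rises steeper than 1 per week and 30.0% of the 40 windows of the rod phototransduction and outer segment lists, but in 2.85% of those of the falls. The letters CCAAT, bound by NFY, were in 34.8% of windows of tested genes and 73.8% of the 42 of the DNA replication and mitosis list. Over all falls the CCAAT share was 34.4% and over all rises 32.7%, both near that of tested genes. TTGGCGC, bound by E2F factors, was in 3.24% and 14.3%, and TAATCC in 0 of those 42. Read on the other strand, the CCAAT letters can share bases with the E2F letters. The letters TGCTGAC, part of the sequence bound by NRL, were in 3.12% of windows of tested genes and 2.5% of the 40 of the rod phototransduction and outer segment lists. TTTGAA, the letters of the cell cycle homology region, were in 10.7% of windows of tested genes and 23.8% of the 42 of the replication and mitosis list. A match is a description of the letters and not a site. The shares count windows, and a gene can have more than 1. The 40 windows came from 31 of the 47 tested rod phototransduction and outer segment genes. The 42 came from 35 of the 43 tested replication and mitosis genes. Sag (chr1:87803430-87803679, plus strand) and Cnga1 (chr5:72642753-72643002, minus strand) are shown as risers with a match, the TAATCC letters in capitals in either orientation, and Mki67 (chr7:135716380-135716629, minus strand) as a fall with 3 CCAAT matches, in capitals in either orientation. The RefSeq start of Cnga1 lies 1523 bases from its GENCODE gene start.
Sag: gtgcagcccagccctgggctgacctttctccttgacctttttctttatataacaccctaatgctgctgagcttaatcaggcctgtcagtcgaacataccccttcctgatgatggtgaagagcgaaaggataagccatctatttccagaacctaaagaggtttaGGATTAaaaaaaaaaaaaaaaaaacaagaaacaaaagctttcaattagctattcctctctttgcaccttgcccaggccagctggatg
Cnga1: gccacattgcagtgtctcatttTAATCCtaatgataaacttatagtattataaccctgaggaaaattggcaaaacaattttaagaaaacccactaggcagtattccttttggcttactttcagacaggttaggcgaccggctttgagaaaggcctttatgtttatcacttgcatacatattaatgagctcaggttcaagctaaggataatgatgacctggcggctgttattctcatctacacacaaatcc
Mki67: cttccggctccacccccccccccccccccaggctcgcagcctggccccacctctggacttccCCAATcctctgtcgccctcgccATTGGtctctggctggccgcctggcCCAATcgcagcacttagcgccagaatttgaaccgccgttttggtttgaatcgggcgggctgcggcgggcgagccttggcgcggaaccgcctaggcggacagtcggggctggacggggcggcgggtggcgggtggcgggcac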

How the data were processed

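PolyA RNA of sorted GFP-positive cells was sequenced in 16 libraries. Per the submitters' processing notes and design text, trimming used Trimmomatic 0.36, quantification used kallisto 0.42.5 on Ensembl release 84 cDNA (GRCm38.p4), and gene CPM came from tximport and edgeR. The deposited gene table (32166 genes, -1 to 198.2) is named CPM but holds a transformed score, the square of log2(CPM + 1) minus 1. Back-transformed values kept a constant ratio to the deposited TPM in 10847 of 11108 genes (97.7%, tolerance 0.01 log2). Deposited tables of estimated counts and TPM stop at 65535 transcripts, so gene sums of estimated counts, rounded, served only for genes with complete transcripts.

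Slopes came from limma 3.58.1 with trend (R 4.3.3) on log2(CPM + 1), which understates low genes, with source and day as a number, in all libraries, for genes with CPM of at least 1 in at least 2. The Benjamini-Hochberg adjusted p over all tested genes had to be under 0.05 for a call. edgeR 4.0.16 and DESeq2 1.42.0, on gene sums (10 or more counts in 2 or more libraries), were alternatives, as were pseudocount, filters, scalings, a replicate block, other scales of day and left-out libraries. The 2 left-out pairs were chosen after seeing the data. Gene coordinates are from GENCODE on GRCm38.

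Members and gene lists were chosen with earlier results of these data known. Named genes were landmarks, the 12 steepest rises and falls, the 8 of smallest p and 10 steadiest of each direction with a mean CPM of at least 5, up to 4 called members of a list, the 8 genes of smallest p for departure from a line and for a source difference, and the 6 rises and 6 falls of smallest p without day 18. Some genes this rule gives are not reported here.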

Additional observations from a re-analysis of the deposited data

How the results depend on the processing

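The number of genes with a slope (1840) stayed within 1.5 times under a pseudocount of 0.1, other filters and scalings, no source term, other scales of day, edgeR (1257 of 9321) and DESeq2 (1992), and without day 35 (1375). With all columns rescaled to the same sum it was 1986, 923 up and 1063 down. It moved to 3021 with array weights, 6 in ESC libraries alone, 610 without day 18, 798 without the low-Nrl pair and 1045 without the Y-discordant pair. Leaving out 1 library at a time gave 555 to 3294. Departures from a line numbered 6 without a filter, and 0 to 29 with 1 library left out. No slope differed between sources under any setting run. The cause of these changes was not tested, and fewer libraries also carry less information.

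Of 112 called genes followed across settings, most of them named in the report, none changed direction where it had a value, which 73 had in edgeR, 64 in DESeq2 and 110 at a filter of 5 CPM. Many of the 112 were chosen for a steep slope or small p in these same libraries, so kept directions are no separate test. Of the 112, 79 kept their call without the low-Nrl pair, 89 without the Y-discordant pair, 55 without day 18 and 62 without iPSC day 35. Of all 1840 calls, 748, 1024, 393 and 529 were kept in the same fits. Genes of the rule that were not called were mostly not followed. Directions changed in 3 uncalled genes. Opn1sw was at 0.083 with the replicate block, 1.99 without day 35, and, with 1 library left out, from -0.984 to 0.31, above 0 without ESC day 35 (0.31) and without iPSC day 35 (0.06). Arr3 was at -0.053 in ESC libraries alone, -0.24 without day 18, -0.12 without the low-Nrl pair and -0.047 without the Y-discordant pair. Crx was at -0.14 without day 18.

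With the replicate number as a block, 3051 genes had a slope, 1572 up and 1479 down, and 1739 were among the 1840. Same-numbered libraries of different groups correlated at 0 to 0.641 in their deviations from group means, not all above 0.1, so the numbers were not taken to pair the libraries. Depth limits genes near 1 CPM, since 1 count in the shallowest library is worth 0.213 CPM.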
